A study of Mus musculus with 4 samples.

Results

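De novo lipogenesis enzymes and the transcription factor ChREBP were followed in RNA sequencing of fat cells as a group of 10 genes, Acly, Acaca, Acacb, Fasn, Elovl6, Scd1, Scd2, Me1, Thrsp and Mlxipl. The genes were taken by symbol from a table of 55487 genes, and all 10 were found and passed the filter on low values that left 16871 genes to test. The samples were adipocytes isolated from perigonadal white adipose tissue, the visceral fat around the gonads, of male CKO mice and male control littermates labelled WT, all on a standard diet. There were 2 libraries of CKO and 2 of WT. The series is about BLIMP1, the transcriptional repressor encoded by Prdm1. The labels give neither the meaning of CKO, the cells that lack the gene, the age of the mice nor the strain, and do not say whether each library came from 1 animal. The p-values below therefore measure only the spread between these libraries.

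De novo lipogenesis turns carbohydrate carbon into fatty acids in the cytosol. Citrate exported from mitochondria is split to acetyl-CoA, acetyl-CoA is carboxylated to malonyl-CoA, and fatty acid synthase builds palmitate from both with NADPH as the reductant. Palmitate is then lengthened and desaturated, which in adipocytes yields much of the stored oleate. Glucose entering the cell activates ChREBP, encoded by Mlxipl, which with its partner Mlx switches on the enzyme genes, and insulin acts on the same genes through SREBP1c. In mouse fat ChREBP is made in a longer form and in a shorter, potent form that is transcribed from an alternative upstream first exon.

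Promoter sequence is shown for 4 of the genes as a description, and its part in their levels was not tested. Each sequence covers the 250 bases before a RefSeq start site on GRCm38.p6, on the strand of the gene. Capitals mark the E-box CACGTG, the core to which ChREBP and other helix-loop-helix factors bind, and the CCAAT box, read on both strands. Acacb was the gene whose CKO and WT values did not overlap, Fasn and Thrsp are lipogenic genes, and the Mlxipl sequence lies before the upstream start site, from which the shorter form is transcribed.
Acacb, chr5:114165268-114165517, plus strand: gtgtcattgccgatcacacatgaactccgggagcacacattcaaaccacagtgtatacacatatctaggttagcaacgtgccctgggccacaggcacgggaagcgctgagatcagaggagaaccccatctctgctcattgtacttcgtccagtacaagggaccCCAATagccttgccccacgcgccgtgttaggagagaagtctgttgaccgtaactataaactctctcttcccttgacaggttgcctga
Fasn, chr11:120824548-120824797, minus strand: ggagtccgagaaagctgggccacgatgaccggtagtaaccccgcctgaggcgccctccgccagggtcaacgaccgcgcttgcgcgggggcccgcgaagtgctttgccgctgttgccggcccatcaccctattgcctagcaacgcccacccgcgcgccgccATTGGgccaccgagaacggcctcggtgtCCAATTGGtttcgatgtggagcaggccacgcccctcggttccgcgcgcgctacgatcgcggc
Thrsp, chr7:97417551-97417800, minus strand: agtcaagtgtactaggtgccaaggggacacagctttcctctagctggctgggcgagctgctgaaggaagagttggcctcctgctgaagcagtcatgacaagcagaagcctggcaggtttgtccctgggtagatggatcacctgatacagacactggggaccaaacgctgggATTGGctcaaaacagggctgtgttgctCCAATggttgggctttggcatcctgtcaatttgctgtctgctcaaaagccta
Mlxipl, upstream start, chr5:135089640-135089889, plus strand: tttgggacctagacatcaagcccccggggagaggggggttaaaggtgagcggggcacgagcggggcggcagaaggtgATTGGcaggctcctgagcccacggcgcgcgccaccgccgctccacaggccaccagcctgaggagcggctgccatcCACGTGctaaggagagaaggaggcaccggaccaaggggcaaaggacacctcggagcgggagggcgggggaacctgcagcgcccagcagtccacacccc

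The Mlxipl sequence held a CACGTG beginning 98 bases before the start site. Windows of 300 bases, from 250 before to 50 after a start, were available for 8 of the 10 genes, with 2 start sites each for Mlxipl and Me1. Of these 10 windows, 1 held CACGTG, against 7.2% of 32851 RefSeq windows, and 6 held CCAAT, against 37.4%. The Fasn sequence holds 3 CCAAT boxes, of which a pair on opposite strands overlap in a single run of capitals. The start sites of Mlxipl lie 17001 bases apart, at 135089890 and 135106891, and as reads were counted per gene, the forms of ChREBP cannot be told apart here.

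The libraries held 24152081 to 26742547 reads. In cell type markers, WT replicate 2 was the extreme library. The summed scaled reads of 12 adipocyte markers were 1837369 and 1210197 in CKO replicates 1 and 2, against 1131425 and 618578 in WT replicates 1 and 2. The sum in WT replicate 2 includes Cd36 at 183882 and Lpl at 199515, against 155480 and 188431 in WT replicate 1. The mean log2 level of the 12 markers was 16.53 and 15.87 in CKO and 15.97 and 14.22 in WT. The summed scaled reads of 15 macrophage markers were 44808 and 100975 in CKO, against 219471 and 696283 in WT. Of these markers, 14 were lower on average in CKO and 1 was higher, where 51.1% of all genes tested were higher. The higher one was Cd163, with a log2 difference of 0.62, and Mertk, at -0.03, overlapped between the groups. No defining marker of either list was at 0: Adgre1, which encodes a surface receptor of macrophages, had 1384 and 3106 reads in CKO and 8071 and 31880 in WT, and Adipoq, the gene for adiponectin, had 71437 and 43436 in CKO and 44425 and 7561 in WT. In bulk RNA, fewer cells of a type and less RNA per cell cannot be told apart. Summed endothelial markers were 65130 and 98984 in CKO against 56360 and 20408 in WT, and summed red blood cell markers 18879 and 30207 in CKO against 9082 and 3256 in WT. Summed fibroblast markers were 21087 and 16901 in CKO against 25520 and 34744 in WT. Prdm1 had 152 and 386 reads in CKO and 514 and 1135 in WT, with a log2 difference of -1.79 (limma adjusted p 0.459), and as the part removed by the allele is not stated, this level does not check the labels.

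Of the 10 genes, 9 were higher on average in CKO and 0 passed limma's threshold of an adjusted p under 0.05, as did 0% of all genes tested. The largest difference was that of Acacb, the mitochondrial acetyl-CoA carboxylase gene, at 4.45-fold. Scd2 was the gene that was lower on average. The median log2 difference (the mean log2(scaled reads + 1) of CKO less that of WT) was 1.27 over the 10 genes and 0.015 over all genes tested, of which 51.1% were above 0. At an unadjusted p under 0.05, 1 of the 10 genes was higher, which was Acacb, and 0 were lower, against 3.35% and 7.26% of all genes tested. The groups stood apart with CKO on top for 1 of the 10, again Acacb, against 23.9% of all genes tested, and with CKO beneath for 0, against 26.8%. The share of genes without overlap was thus no larger than in the background.

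**Figure D1:**
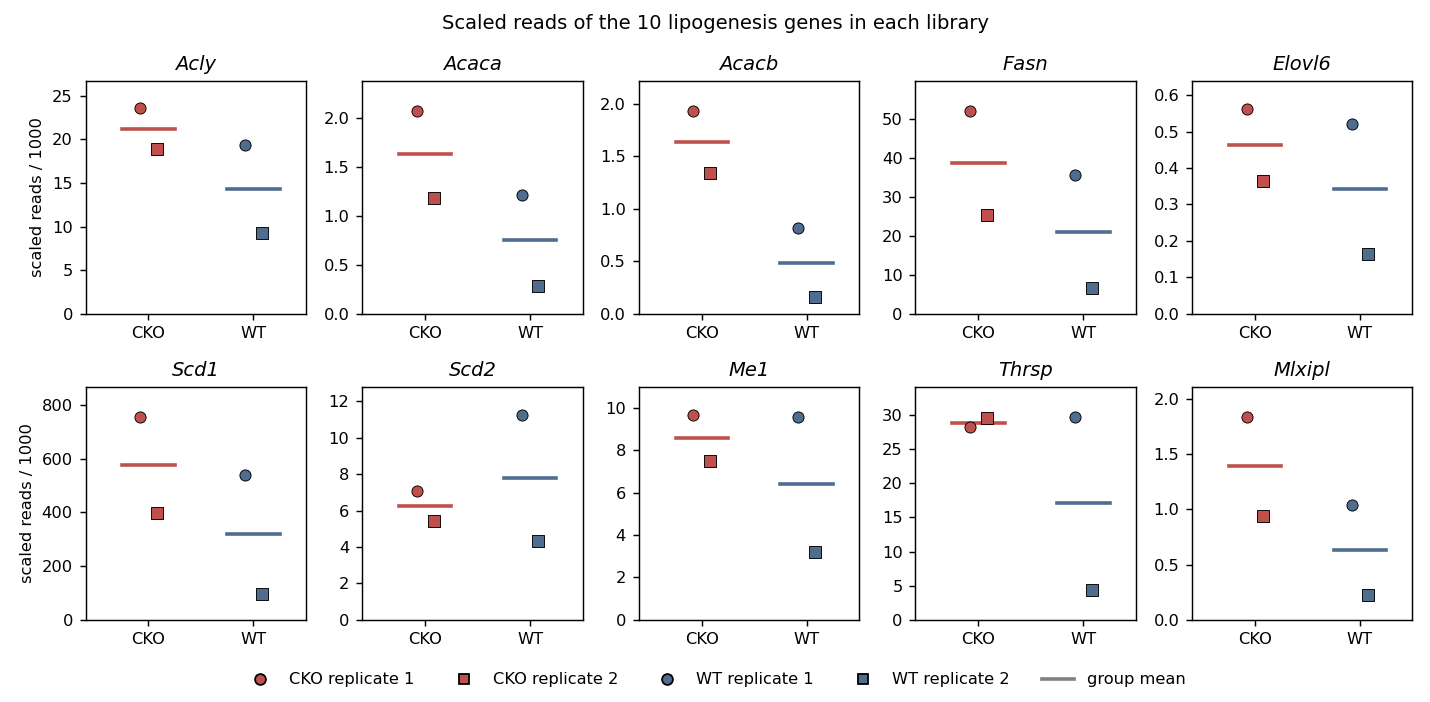
Scaled reads (in units of 1000, linear axes from 0) of each of the 10 genes in the CKO libraries (red) and the WT libraries (blue), with circles for replicate 1, squares for replicate 2 and bars for group means. WT replicate 2 is the lowest library in all 10 panels, and the groups do not overlap for Acacb alone.

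The WT libraries differed more from each other than the groups did. All 10 genes were lowest in WT replicate 2, and 8 were highest in CKO replicate 1. WT replicate 1 was above CKO replicate 2 for 9 of the 10, all but Acacb. The order CKO replicate 1, WT replicate 1, CKO replicate 2, WT replicate 2 held for 7 of them. As the median of each gene's log2 distance from its own mean, CKO replicates 1 and 2 were at 0.87 and 0.17, WT replicate 1 at 0.50 and WT replicate 2 at -1.79. Without WT replicate 2 the median log2 difference of the 10 genes was 0.02, with 6 above 0. Without WT replicate 1 it was 2.47, with 10 above 0, against a median of -0.004 over all genes tested. That fit takes the spread of the single WT library left to equal that of the CKO pair.

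Acly, ATP citrate lyase, makes the cytosolic acetyl-CoA of the pathway. It lies on chromosome 11 (100476353 to 100528000, minus strand) and had 23509 and 20898 reads in CKO, against 18673 and 8767 in WT. The scaled level was 21240 ± 3268 in CKO libraries and 14304 ± 7192 in WT libraries (SD, n = 2), with CKO replicate 2 just under WT replicate 1. Its log2 difference was 0.66 (SE 0.50, 95% interval -0.64 to 1.96, limma adjusted p 0.569), and it was 0.12 without WT replicate 2 and 1.20 without WT replicate 1. Acly was the enzyme of the core pathway that varied least over the libraries, over a log2 range of 1.35, against 3.00 for Fasn.

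Both acetyl-CoA carboxylases make malonyl-CoA, the cytosolic enzyme of Acaca for fatty acid synthesis and the enzyme of Acacb at the outer mitochondrial membrane, where malonyl-CoA holds back the entry of fatty acids for oxidation. Acacb lies on chromosome 5 (114146535 to 114250761, plus strand). It had 1925 and 1484 reads in CKO against 785 and 152 in WT, so that both CKO libraries were above both WT libraries. The scaled level was 1636 ± 413 in CKO libraries and 487 ± 463 in WT libraries (SD, n = 2). The log2 difference was 2.15 (SE 0.80, 95% interval 0.09 to 4.21), with an adjusted p of 0.459 in limma. It was 0.98 without WT replicate 2 and 3.32 without WT replicate 1. Acaca, on chromosome 11 (84129672 to 84401651, plus strand), had 2073 and 1313 reads in CKO against 1173 and 271 in WT. Its groups met, as CKO replicate 2 and WT replicate 1 were at 1189 and 1218 scaled reads, and its log2 difference was 1.41 (SE 0.75, 95% interval -0.52 to 3.34, limma adjusted p 0.476). This difference was 0.37 without WT replicate 2 and 2.46 without WT replicate 1. An unnamed gene model lies antisense to each carboxylase gene, and whether strand was used in counting is not stated in the sources, so its reads cannot be separated. Other genes also lie antisense to Elovl6, Me1 and Mlxipl. On the same strand, other genes overlap Acly, Acaca, Elovl6, Scd2 and Me1.

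The log2 ratio of Acacb to Acaca was higher in both CKO libraries, at -0.11 and 0.18, than in both WT libraries, at -0.58 and -0.83. In scaled reads Acacb was at 0.929 and 1.13 times Acaca in CKO, and at 0.669 and 0.561 times in WT. These ratios are a description and were not tested. The ratios of Scd2 to Scd1, Mlxipl to Fasn and Elovl6 to Fasn, given below, also stood apart between the groups, and that of Scd1 to Fasn overlapped. The gap was narrow for Mlxipl to Fasn, whose nearest log2 ratios were -4.83 in CKO and -4.86 in WT. It was also narrow for Elovl6 to Fasn, at -6.13 in CKO and -6.10 in WT. How often ratios of other gene pairs stand apart was not counted. The coding sequences of these paralogues were 72.2% identical over 6911 aligned bases, and 0 of 9414 windows of 100 bases of the longest Acaca transcript occurred in that of Acacb.

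Fasn, fatty acid synthase, carries all steps from malonyl-CoA to palmitate on a single chain. It lies on chromosome 11 (120805846 to 120824547, minus strand) and had 52040 and 28114 reads in CKO, against 34360 and 6186 in WT. The scaled level was 38799 ± 18856 in CKO libraries and 21091 ± 20629 in WT libraries (SD, n = 2). CKO replicate 2 lay between the WT libraries, and the log2 difference was 1.26 (SE 0.94, 95% interval -1.17 to 3.69, limma adjusted p 0.564). It was 0.03 without WT replicate 2.

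Elovl6, the elongase that takes palmitate to stearate, was the lowest of the group per transcript length in CKO. On chromosome 3 (129532355 to 129638495, plus strand), it had 560 and 401 reads in CKO, against 501 and 155 in WT. The log2 difference was 0.63 (SE 0.62, 95% interval -0.98 to 2.24, limma adjusted p 0.655), and -0.20 without WT replicate 2.

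Scd1, the main stearoyl-CoA desaturase of adipocytes, which puts the double bond into oleate and palmitoleate, was by far the most abundant of the group. It lies on chromosome 19 (44394455 to 44407879, minus strand), with 753098 and 439227 reads in CKO against 520841 and 90263 in WT. CKO replicate 2 was again between the WT libraries. The log2 difference was 1.27 (SE 1.80, 95% interval -3.38 to 5.93, limma adjusted p 0.755), and 0.02 without WT replicate 2. Its log2 values ranged over 2.99, close to the 3.00 of Fasn, and its interval was wider because the fit sets part of each gene's error from genes of like level.

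Scd2, a paralogue of Scd1 expressed in brain and many other tissues, did not follow the rest. On chromosome 19 (44293674 to 44306864, plus strand), it had 7044 and 5973 reads in CKO against 10848 and 4098 in WT. The CKO libraries lay between the WT libraries, and the log2 difference was -0.17 (SE 0.53, 95% interval -1.54 to 1.19, limma adjusted p 0.893). This difference was -0.87 without WT replicate 2 and 0.52 without WT replicate 1, so its direction turned with the library left out. Scd2 was at 0.00935 and 0.0136 times Scd1 in scaled reads in CKO, and at 0.0208 and 0.0454 times in WT, without overlap between the groups. The macrophage marker sum had the same order over the 4 libraries as this ratio, and its part in the ratio was not tested. The coding sequences of Scd1 and Scd2 were 90.4% identical over 1068 aligned bases, and 48 of 4733 windows of 100 bases of Scd1 occurred in Scd2. As the sources state neither the read length nor the handling of shared reads, the low level of Scd2 beside Scd1 is uncertain.

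Me1, cytosolic malic enzyme, supplies NADPH to the pathway. On chromosome 9 (86581371 to 86695953, minus strand), it had 9628 and 8276 reads in CKO against 9227 and 3030 in WT. CKO replicate 1 was at 9645 scaled reads and WT replicate 1 at 9581. The log2 difference was 0.62 (SE 0.58, 95% interval -0.89 to 2.13, limma adjusted p 0.639), and -0.17 without WT replicate 2.

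Thrsp, or Spot 14, a small protein of lipogenic tissues that responds to thyroid hormone and to carbohydrate, was the most even of the genes outside WT replicate 2. On chromosome 7 (97412938 to 97417730, minus strand), it had 28151 and 32636 reads in CKO, against 28608 and 4193 in WT. The scaled level was 28881 ± 962 in CKO libraries and 17057 ± 17888 in WT libraries (SD, n = 2). The log2 difference was 1.34 (SE 0.95, 95% interval -1.12 to 3.79, limma adjusted p 0.548). Without WT replicate 2 it was -0.04.

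Mlxipl, which encodes ChREBP itself, moved with the enzymes. On chromosome 5 (135089890 to 135138382, plus strand), it had 1833 and 1043 reads in CKO against 1002 and 212 in WT. The scaled level was 1391 ± 630 in CKO libraries and 632 ± 578 in WT libraries (SD, n = 2), and the groups overlapped, with CKO replicate 2 at 945 and WT replicate 1 at 1040. The log2 difference was 1.45 (SE 0.80, 95% interval -0.62 to 3.52, limma adjusted p 0.483), and 0.34 without WT replicate 2.

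**Figure D2:**
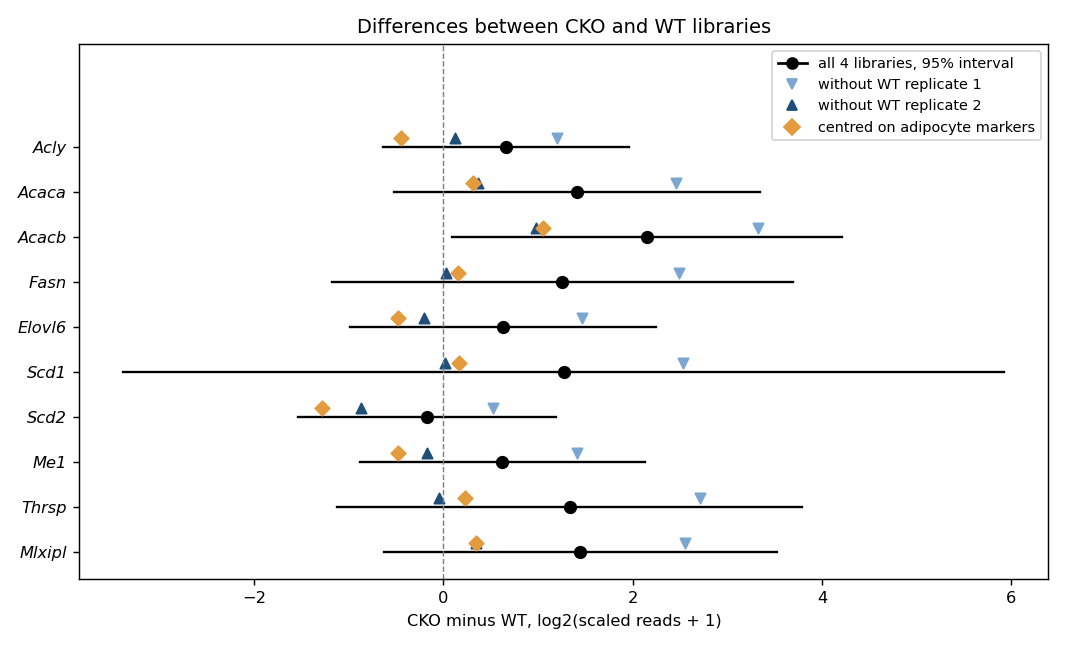
Difference of each gene on the log2(scaled reads + 1) scale, CKO minus WT, with its 95% interval from limma (black), and its value without WT replicate 1, without WT replicate 2 and after centring each library on the mean of 12 adipocyte markers. The interval of Acacb alone lies above 0, and without WT replicate 2 the values run from -0.87 for Scd2 to 0.98 for Acacb.

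Per length of the longest annotated coding transcript, Scd1 led by a wide margin, at 4785 ± 1959 RPKM (reads per kilobase of transcript, scaled to the total reads of the library) in CKO and 2589 ± 2651 in WT (SD, n = 2). Thrsp followed at 914 ± 58.7 in CKO and 527 ± 567 in WT. Acly stood at 193 ± 23.8 in CKO and 125 ± 69.9 in WT, and Fasn at 155 ± 71.0 in CKO and 82.5 ± 83.4 in WT. Between libraries the values of Acly and Fasn overlapped, but within every library Acly was the higher. In CKO Acly was at 210 and 177 and Fasn at 205 and 105. In WT Acly was at 175 and 75.8 and Fasn at 142 and 23.5. Me1 was at 105 ± 15.4 in CKO and 75.6 ± 57.2 in WT, and Scd2 at 46.0 ± 7.19 in CKO and 55.5 ± 37.9 in WT. The lowest were Mlxipl (15.4 ± 6.55 in CKO and 6.85 ± 6.52 in WT), Acacb (7.49 ± 1.67 in CKO and 2.18 ± 2.15 in WT), Acaca (6.89 ± 2.45 in CKO and 3.10 ± 2.84 in WT) and Elovl6 (3.12 ± 0.85 in CKO and 2.24 ± 1.76 in WT). Between the WT libraries the values of these 4 overlapped, but within each WT library Mlxipl was the highest of them, at 11.5 and 2.24.

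Scd1 and Fasn kept a nearly fixed ratio through libraries that differed greatly in level. The log2 ratio of Scd1 to Fasn was 3.85 and 3.97 in CKO and 3.92 and 3.87 in WT, while each gene alone ranged over about 3 log2 units. The log2 ratio of Mlxipl to Fasn was -4.83 and -4.75 in CKO and -5.10 and -4.86 in WT, higher in both CKO libraries. That of Elovl6 to Fasn was -6.54 and -6.13 in CKO and -6.10 and -5.31 in WT. It was lower in both CKO libraries and highest in WT replicate 2. Ratios over 4 libraries share depth and composition and are given as a description. A close ratio to Fasn is not particular to this group of genes. Fasn was at log2 levels of 15.67 and 14.64 in CKO and 15.12 and 12.67 in WT. Adipoq, outside the group, was at 16.13 and 15.26 in CKO and 15.49 and 12.96 in WT.

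The genes were also set against the adipocyte markers of the same library. The measure is the log2 level minus the mean log2 level of 12 adipocyte markers. It moved the median difference of all genes tested to -1.09, so a value below 0 by this measure is not by itself a low one. Both CKO libraries were above both WT libraries for 2 of the 10 genes, against 2.54% of all genes tested, and below both for 3, against 37.6%. By it 9 of the 10 genes had a smaller range over the libraries than by level alone, all but Scd2. The same count was not made over all genes tested. Acacb was at -5.61 and -5.47 in CKO and -6.30 and -6.89 in WT, and Acaca at -5.50 and -5.65 in CKO and -5.72 and -6.06 in WT, both without overlap. Scd2 was at -3.74 and -3.47 in CKO against -2.51 and -2.14 in WT, a difference of -1.28 that lay below the median of all genes tested. Me1, on average -3.15 in CKO and -2.66 in WT, and Elovl6, at -7.39 and -7.36 in CKO against -6.94 and -6.86 in WT, also had the CKO libraries beneath without overlap, but their differences of -0.48 and -0.47 were above the median of all genes. The other 5 overlapped between the groups. Fasn, for example, was at -0.86 and -1.23 in CKO and -0.85 and -1.55 in WT. The marker list holds Lep, Cd36 and Lpl, whose log2 differences of -1.23, -0.01 and -0.28 did not follow those of Adipoq (1.47) and Plin1 (1.44). The median difference of the 10 genes was 0.16 centred on the list, against -1.09 over all genes tested. It was -0.20 centred on Adipoq alone, against -1.46 over all genes, and -0.18 centred on Plin1 alone, against -1.43. Acacb was at 1.05, 0.68 and 0.71 in turn and Scd2 at -1.28, -1.64 and -1.62, with 0 of the 10 genes past limma's adjusted threshold in any of the 3 fits. The difference of Acaca, 0.31 centred on the list, was -0.06 and -0.03 centred on Adipoq and Plin1.

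**Figure D3:**
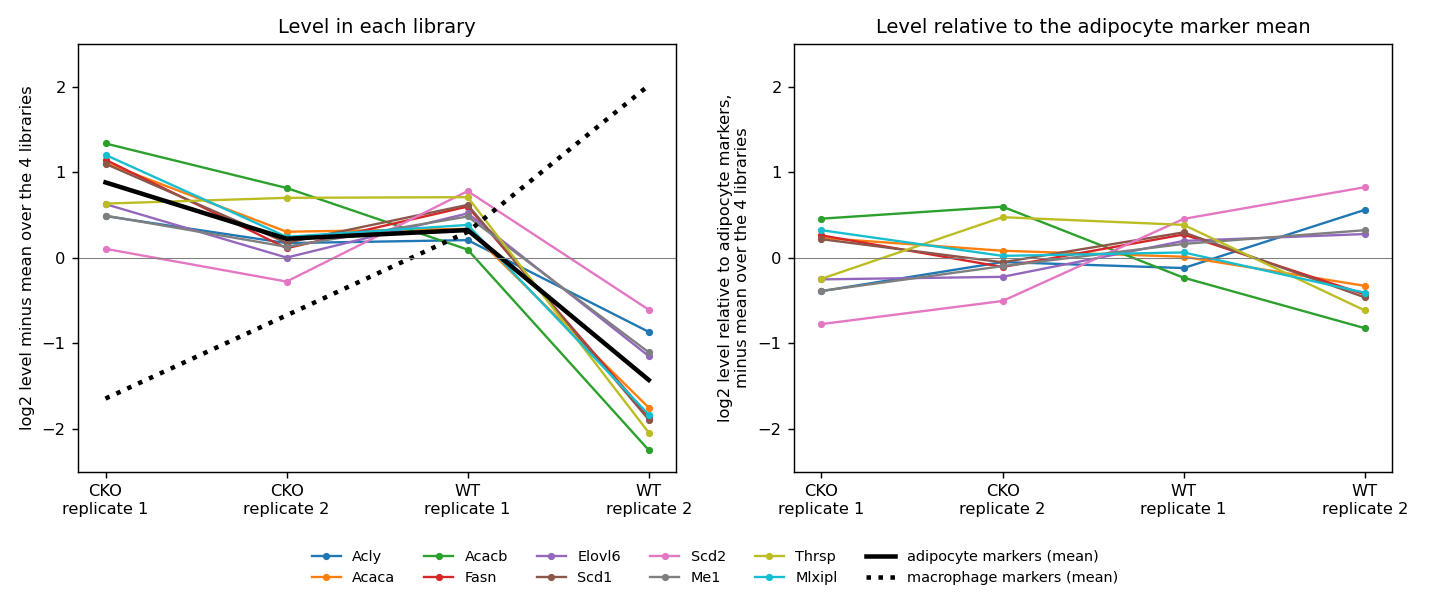
Left, log2 level of each gene minus its mean over the 4 libraries, with the means of the adipocyte markers (solid black) and macrophage markers (dotted black); right, the same after subtracting the adipocyte marker mean of each library. Lines only join the values of a gene. On the left the genes have a median of -1.79 in WT replicate 2, where the adipocyte marker mean is also lowest, and on the right Acacb and Scd2 lie at opposite ends.

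Beyond the 10 genes, 86 genes of 8 fatty acid synthesis lists were looked up, of which 78 were tested. Of these, 47 were higher and 31 lower on average in CKO (median log2 difference 0.20), and 0 passed at an adjusted p under 0.05. At an unadjusted p under 0.05, 1 was higher and 3 were lower, against 3.35% and 7.26% of all genes tested. The groups stood apart with CKO on top for 10 and with CKO beneath for 16 of them, against 23.9% and 26.8% of all genes tested.

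Other genes of NADPH supply stood near 0. Of 10 such genes, 4 were higher and 6 lower, with a median log2 difference of -0.07 and 0 past the adjusted threshold. G6pdx, the first enzyme of the pentose phosphate pathway, was at -0.20, and Pgd, its second dehydrogenase, at -0.43. Idh1, cytosolic isocitrate dehydrogenase, and Pgls, the lactonase between them, were at -0.37 and -0.25. The supply of citrate and acetyl-CoA was higher for 10 of 12 genes (median 0.40), with 0 past the threshold. Pcx, pyruvate carboxylase, had 57181 and 27498 reads in CKO against 23623 and 6004 in WT, without overlap, a log2 difference of 1.60. Pdhb, a pyruvate dehydrogenase subunit, was at 0.48 and Slc25a1, the mitochondrial citrate carrier, at 0.61. Acss1, the mitochondrial acetyl-CoA synthetase, went the other way, with 414 and 713 reads in CKO against 801 and 1806 in WT (-1.28).

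Genes that control acetyl-CoA carboxylase were mixed, 7 of 12 higher (median 0.16) and 0 past the threshold. Prkaa1, a catalytic subunit of the AMP-activated kinase that inhibits the carboxylases, was at 0.54, without overlap between the groups, and Prkaa2 at 1.01. Trib3, a pseudokinase linked to turnover of the carboxylase, was at -0.99, and Mid1ip1, a relative of Thrsp that promotes polymerisation of the carboxylase, at -0.35.

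Of the other elongation and desaturation enzymes, 11 of 16 were tested, with 6 higher, 5 lower, a median of 0.34 and 0 past the threshold. Fads2, the delta-6 desaturase of polyunsaturated fatty acids, had 742 and 694 reads in CKO against 326 and 194 in WT, without overlap. Its log2 difference was 1.38 (SE 0.35, limma adjusted p 0.459). Fads1, the delta-5 desaturase, was at 0.38, and Elovl5, an elongase of polyunsaturated fatty acids, at 0.42. Hacd4, a dehydratase of the elongation cycle, was at -1.60 and Elovl1, an elongase of saturated very long chains, at -0.91, both without overlap and highest in WT replicate 2. Scd3 and Scd4 had at most 16 and 10 reads in any library and were not tested.

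Transcriptional regulators of lipogenesis were 7 higher and 8 lower (median -0.03), with 0 past the threshold. Srebf1, the gene of SREBP1, was at 0.81 with 11129 and 6829 reads in CKO and 7234 and 2851 in WT. Mlx, the partner of ChREBP, was at -0.37, unlike Mlxipl. Insig1, which retains SREBP in the endoplasmic reticulum, was at -0.79, Srebf2, the regulator of sterol synthesis, at -0.93, and Rxra, a nuclear receptor partner, at 0.89. Of 8 tested genes known as ChREBP targets or tied to its activation, 7 were higher (median 0.65) and 0 passed. Slc2a4, the insulin-responsive glucose transporter GLUT4, had 6353 and 3424 reads in CKO against 2708 and 479 in WT, without overlap, a log2 difference of 1.90. Txnip, a glucose-induced arrestin relative, was at 1.06 without overlap, and Pnpla3, a lipid droplet protein, at 1.53. Fgf21, a secreted metabolic hormone, was low, with 34 and 13 reads in CKO and 12 and 1 in WT.

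Genes of fatty acid activation, which attach coenzyme A to the product, were 2 higher and 3 lower of 5 tested (median -0.66), with 0 past the threshold. Acsl1, the acyl-CoA synthetase of most reads in the list (37294 and 20350 in CKO, 20775 and 7629 in WT), was at 1.00. The other higher gene was Dbi, at 0.34, and both overlapped between the groups. Acsl5, Acsl3 and Acsl4, acyl-CoA synthetases of several tissues, were at -0.68, -0.82 and -0.66, each without overlap. Like Hacd4, Elovl1 and Acss1, they were highest in WT replicate 2, the library of the highest macrophage marker sum, whose part in these differences was not tested. In mitochondrial fatty acid synthesis, a separate route that makes lipoic acid precursors, 4 of 5 tested genes were higher (median 0.23) and 0 passed. Mcat, its malonyl transferase, was at 0.60, Ndufab1, its acyl carrier protein, at 0.39, and Cbr4, a subunit of its reductase, at 0.17.

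**Figure D4:**
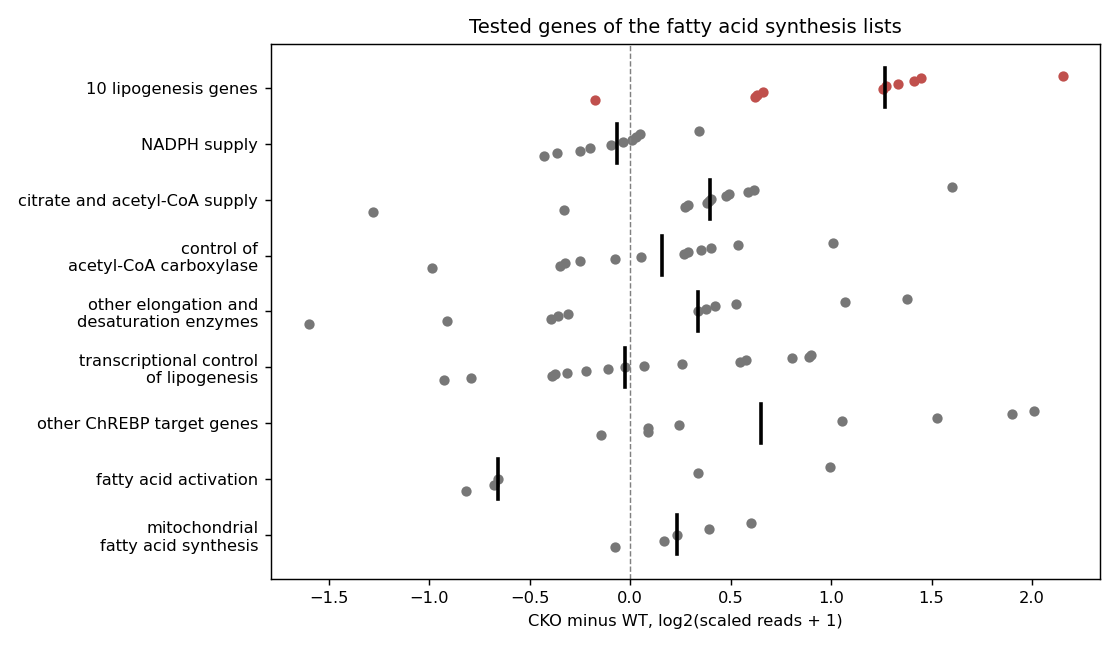
Log2 difference, CKO minus WT, of each tested gene of the 10-gene group (red) and of 8 lists of fatty acid synthesis genes (grey), with a bar at the median of each. The 10 genes have a median of 1.27, and the lists have medians from -0.66 to 0.65.

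The tested genes outside the group whose profile over the 4 libraries was nearest to the median profile of the 10 genes, by Euclidean distance of centred log2 values, were Gm17315, Plin4, Apol6, Ddo and Grhl1. Their distances were 0.14 to 0.18 log2 units. Plin4, a lipid droplet coat protein of adipocytes, was at 0.87 and 0.20 in CKO and 0.63 and -1.70 in WT relative to its own mean, with a log2 difference of 1.07.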

How the data were processed

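Adipocytes of 4 libraries, 2 CKO and 2 WT, were measured by RNA sequencing. The submitters' processing notes name STAR 2.7.5c as aligner, GRCm38.p6 as genome and FastQC for quality control, and the sources do not state how reads were counted. The deposited values are on a log2 scale, and undoing them as log2(reads + 1) gave whole numbers within 0.01 for 100% of genes in each library, so reads were recovered by rounding. Size factors (medians of ratios over 19847 genes) were 0.998 and 1.10 for CKO and 0.963 and 0.951 for WT. The 16871 genes whose deposited log2 values averaged 3 or more were fitted in limma 3.58.1 (R 4.3.3; trend, two-sided, Benjamini-Hochberg over all of them) on log2(scaled reads + 1), with 2 residual and 2.92 prior degrees of freedom. Scaling was applied because the deposited values proved unscaled. The test for log2 values was kept, and voom weights on the recovered reads were among the other settings. Where a symbol stood on several rows (112 symbols), the row of highest mean was used. Replicate numbers only name the libraries of a group; no batch is named in the labels. Coordinates and transcript lengths are from GENCODE M21 on GRCm38, matched by 55094 identifiers (99.3%), and promoter windows are from RefSeq on GRCm38.p6, with motifs found by exact match. The fit was tested on simulated reads with known changes. The genes named are the 10 genes, the 3 of smallest p in each list, a few regulators and markers fixed with the lists, and the 5 nearest profiles. Acsl1 and Dbi are named besides, as the higher genes of their list. The 10 genes and the lists were chosen with earlier results of these data known. Other settings tried were a minimum of 6 or none, a fit without trend, a pseudocount of 10, 5 other scalings or weightings, centring on adipocyte markers and each library left out in turn; centring on Adipoq or Plin1 alone was chosen after seeing the data.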

Additional observations from a re-analysis of the deposited data

How the results depend on the processing

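The number of genes past the adjusted threshold in limma was 0 in the main setting and 172 (1 higher and 171 lower) with values centred on the adipocyte markers, 3 centred on Plin1, and 0 to 1775 over the fits that leave out a library, the highest without WT replicate 1. Of the 10 genes, 0 to 4 passed in those fits and 0 in each other setting. At an unadjusted p under 0.05 the main fit gave 566 genes higher and 1224 lower. Acacb, under it in the main fit, was at an unadjusted limma p of 0.052 with a minimum of 6 and 0.064 without trend. With scaling by total reads this p was 0.051, and centred on the list of adipocyte markers it was 0.40. In the other settings that kept all 4 libraries and did not centre on markers, it stayed under 0.05. The median difference of the 10 genes was 0.024 to 2.47 with a library left out, and reversed to -0.20 centred on Adipoq and -0.18 centred on Plin1, where the median of all genes tested moved to -1.46 and -1.43; it moved to -1.09 centred on the list and to 0.15 in unscaled values. Single genes that reversed were Acly (-0.44 centred on the list, -0.81 on Adipoq, -0.78 on Plin1), Elovl6 (-0.47, -0.84, -0.81), Me1 (-0.48, -0.85, -0.82), and, on Adipoq and Plin1, Acaca (-0.057, -0.03), Fasn (-0.21, -0.19), Scd1 (-0.20, -0.17) and Thrsp (-0.14, -0.11). Mlxipl was at -0.021 on Adipoq. With a library left out, Elovl6 ran from -0.20 to 1.46, Scd2 from -0.87 to 0.52, Me1 from -0.17 to 1.42 and Thrsp from -0.041 to 2.71. Of 160 values of single genes in other settings, 133 kept direction and side of the threshold, 23 reversed and 4 passed it. Beyond the centring built into those fits, the cause of these changes was not tested. No paired analysis was possible because the labels give no replicate numbers, and those used here only name libraries and tie to no litter or batch. With 2 libraries a group, differences of the size seen between the WT libraries limit what could be called.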
